A study of Rattus norvegicus with 24 samples.

Results

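Wounds covered with either of 2 hydrogels were compared with Sham wounds to find the expression changes that both gels shared, whether or not the gel carried the nanozyme. CuNZ@Gel and Gel were pooled, which gave 16 of the 24 profiled areas from 4 of the 6 specimens, and Sham supplied the other 8 areas from 2 specimens. The tissue was skin taken at day 7 from splinted, full-thickness defects of 8 mm in male Sprague-Dawley rats, in which streptozotocin had induced diabetes at an age of 5 weeks. All 3 groups were diabetic, so the comparison says nothing about diabetes itself. Each specimen had 2 regions with the short name mac, and each region was split by immunofluorescence into Segment 1 and Segment 2. The labels leave unsaid whether each numbered specimen came from its own animal, what was put on a Sham wound, what the gels are made of, or which markers defined a segment. RNA was measured with GeoMx digital spatial profiling, in which light releases indexed probe tags from a chosen area of a fixed section and the tags are sequenced. With specimens as the replicates, the p-values rest on the spread between these numbered specimens, most of it estimated over many targets together. That spread may be technical.

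Day 7 of a skin wound falls in the phase when granulation tissue forms. Macrophages take up debris and produce complement proteins and cytokines, fibroblasts lay down collagen and fibronectin, and contractile myofibroblasts pull the edges together. MHC class II molecules on antigen-presenting cells show peptides to helper T cells, with Cd74 as their chaperone. Metallothioneins are small cysteine-rich proteins that bind zinc and copper, and their genes are switched on by metals through the factor MTF1 and also by glucocorticoids.

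Among the rises were the metallothionein genes Mt2 and Mt1, which both differed widely between the gels. Their promoters are shown because metal response elements, with the core TGCACNC or TGCGCNC, are the best known control elements of these genes. The sequences are from RefSeq on GRCr8 and cover 300 bases around the annotated start, 5′ to 3′ on the gene's own strand. Capitals mark matches to the core on either strand, and no 2 matches overlap.
Mt2 (rat Mt2A), chr19:10838659-10838958, minus strand: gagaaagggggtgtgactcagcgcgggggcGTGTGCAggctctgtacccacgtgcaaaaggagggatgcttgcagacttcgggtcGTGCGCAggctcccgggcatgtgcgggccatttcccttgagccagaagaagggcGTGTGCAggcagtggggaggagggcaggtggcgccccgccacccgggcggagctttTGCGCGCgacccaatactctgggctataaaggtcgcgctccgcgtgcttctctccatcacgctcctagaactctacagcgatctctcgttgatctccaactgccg
Mt1, chr19:10832926-10833225, minus strand: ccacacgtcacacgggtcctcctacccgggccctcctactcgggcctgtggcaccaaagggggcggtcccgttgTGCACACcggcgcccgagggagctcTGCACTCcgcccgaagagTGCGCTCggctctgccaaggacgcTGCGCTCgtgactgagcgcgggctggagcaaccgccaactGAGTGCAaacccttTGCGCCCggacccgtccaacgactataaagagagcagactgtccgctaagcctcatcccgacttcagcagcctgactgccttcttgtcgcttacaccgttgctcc
The Mt2 window held 4 matches and the Mt1 window 6. Of 33469 RefSeq rat promoters of the same length, 24.2% held at least 1 match, 0.439% at least 4 and 0.123% at least 5. A match is a match of letters and shows no binding.

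Sequencing depth overlapped between the groups. Recovered counts ran from 86385 to 873465 in hydrogel areas (median 340370) and from 118812 to 1476499 in Sham areas (median 336937.5), and Sham 2 had the largest total of the 6 specimens, at 2953939. Values below are scaled signal, given per specimen as the mean of log2(value + 1) over its 4 areas, turned back into signal. Changes are differences on that log2 scale, which understates the changes of low targets. A target counts as above background when it exceeded, in at least 4 areas, a limit set by 1116 receptor targets for odorants and pheromones, namely their 99th percentile in the same area. That percentile lay between 11.4 and 21.6. It was exceeded by 5554 of the 19728 targets tested. None of 16 keratinocyte markers was above background, which leaves the epidermal part of skin undetected in these areas at this depth. The summed signal of those markers was 65.4 to 82.8 in hydrogel specimens and 63.0 to 65.8 in Sham. Macrophage markers summed to 1079 to 1411 in hydrogel specimens and 1139 to 1165 in Sham, with 9 of 20 above background. Fewer cells of a type and less RNA per cell cannot be told apart in such areas.

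Both hydrogels together differed from Sham at 469 targets with a Benjamini-Hochberg adjusted p under 0.05 in limma, which is 2.38% of those tested. Of these, 126 were higher in hydrogel wounds (0.639%) and 343 lower (1.74%). Above background 422 of 5554 targets were called (7.6%), 88 of them higher (1.58%) and 334 lower (6.01%). Counts of calls in the gene lists below are to be read against these shares. In 392 of these calls (77 higher, 315 lower) all 4 hydrogel specimens also lay on one side of both Sham specimens, against a background of 6.52% of targets above background with all hydrogel specimens above Sham and 28.4% with all below. The median change of the 77 was 0.85 and that of the 315 was -0.74. The median over all targets above background was -0.15, or -0.0086 after quantile normalization and -0.26 after scaling to the median, so the excess of lower calls depends on the scaling: quantile normalization gave 154 higher and 156 lower, and scaling to the median 53 and 305. The count of calls was 146 without Sham 1, 264 without CuNZ@Gel 1, 266 without CuNZ@Gel 2 and 944 without Gel 2. A typical target's spread rested on 133 prior degrees of freedom pooled over targets and 3 of its own. The SD used can thus differ from a gene's own: it was 0.20 for C3, whose own was 0.37, and 0.26 for Zic1, whose own was 0.13. An exact two-sided permutation of 4 against 2 specimens has 15 relabellings and cannot go below p = 0.133.

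Complement genes were the first group of large shared rises. C3, the central component that all activation routes cleave, had a signal of 134 and 91.8 in the CuNZ@Gel specimens and 137 and 161 in the Gel specimens, against 11.2 and 18.9 in the Sham specimens. Every hydrogel specimen was several times above both Sham specimens, and both Gel specimens lay above both CuNZ@Gel specimens. The hydrogel mean was 131 ± 28.9 (SD, n = 4) and the Sham mean 15.04 ± 5.40 (SD, n = 2), a log2 change of 3.06 (SE 0.17, adjusted p = 3.59e-29). C3 was above background in 16 of 16 hydrogel areas and 3 of 8 Sham areas. With Segment 1 areas alone its change was 2.80 and did not pass (adjusted p = 0.213).

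Cfb, the factor B gene of the alternative pathway that forms the C3 convertase, had 8.83 and 8.21 in CuNZ@Gel and 16.8 and 14.7 in Gel, against 3.05 and 3.70 in Sham. All 4 hydrogel specimens were higher, those of Gel the most, at a change of 1.53 (SE 0.24, adjusted p = 1.31e-06). It was above background in 7 of 16 hydrogel areas, 6 of Gel and 1 of CuNZ@Gel, and in none of 8 Sham areas. Both CuNZ@Gel specimen values of Cfb lay under the lowest background limit of any area, 11.4. Clu encodes clusterin, which holds back the terminal complex, and had 13.5 and 10.4 in CuNZ@Gel and 24.9 and 17.3 in Gel, against 5.17 and 6.17 in Sham (change 1.33, adjusted p = 6.85e-06). The Clu and Cfb changes did not pass with counts thinned to the shallowest area (adjusted p = 0.475 and 0.371). C6, a part of the membrane attack complex and outside the complement list, had 32.3 and 33.1 in CuNZ@Gel and 44.9 and 44.8 in Gel, against 8.74 and 17.2 in Sham (change 1.56, adjusted p = 6.08e-11), a call that DESeq2 did not make (adjusted p = 0.47). Of 19 complement components and regulators tested, 3 rose and 2 fell, with a median change of 0.07 over the list and 0.06 over all targets. The falls were C5ar1, the receptor for the C5a fragment, with 71.6 and 59.0 in CuNZ@Gel and 59.5 and 89.7 in Gel, against 151 and 112 in Sham, and C1qb. The C5ar1 call was lost without Sham 1 (adjusted p = 0.152). C1qb encodes 1 chain of C1q, and its gels lay on opposite sides of Sham: 4.51 and 3.55 in CuNZ@Gel and 107 and 164 in Gel, against 36.3 and 62.1 in Sham. Its average is thus not a shared change, and it was lost without Sham 2 (adjusted p = 0.37). The other chains did not pass: C1qa changed by 0.20 (adjusted p = 0.665) and C1qc by 0.71 (adjusted p = 0.0538).

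Metallothioneins rose in both gels for Mt2 and mainly in Gel for Mt1. Mt2 had 424 and 451 in CuNZ@Gel and 3454 and 2289 in Gel, against 86.7 and 137 in Sham. Each gel was clear of Sham and of the other gel, with an average change of 3.33 (SE 0.16, adjusted p = 2.45e-31). Mt1 had 49.6 and 56.3 in CuNZ@Gel and 377 and 237 in Gel, against 46.4 and 36.9 in Sham (average change 1.58, adjusted p = 5.87e-14). The CuNZ@Gel specimens were barely above Sham 1, and their own change of 0.35 did not pass (adjusted p = 0.527). After quantile normalization neither average passed (adjusted p = 0.131 for Mt2 and 0.0834 for Mt1). In the list of 16 metallothionein, zinc and copper transport genes, these 2 rose and Sod1, the copper and zinc superoxide dismutase, fell by 0.56 (adjusted p = 0.0266), a call lost without Sham 1 (adjusted p = 0.506), Sham 2 (0.157), CuNZ@Gel 1 (0.244) or CuNZ@Gel 2 (0.0989). The median of the list was -0.08.

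Immune genes with a shared rise included an interferon-inducible gene and a cytokine subunit. Ifi27l2a, a small interferon-induced protein, had 107 and 144 in CuNZ@Gel and 79.4 and 116 in Gel, against 24.7 and 31.8 in Sham, so that the groups stood well apart (change 1.92, SE 0.17, adjusted p = 1.42e-18). Ebi3 is the subunit shared by interleukin 27 and interleukin 35. It had 39.2 and 54.3 in CuNZ@Gel and 58.7 and 54.1 in Gel, against 14.2 and 15.6 in Sham (change 1.71, SE 0.18, adjusted p = 2.73e-14). Both calls passed under all 23 alternatives. Of 20 interferon-inducible genes 2 rose, the second being the chemokine gene Cxcl9, whose highest specimen was at 9.71 and which was not above background. Its call was lost without CuNZ@Gel 2 (adjusted p = 0.324), Sham 1 (0.635) or Sham 2 (0.0811). Of 24 inflammatory cytokines and chemokines, Ebi3 rose and Cxcl12 fell, with a median of 0.00 over the list. Cxcl12, a chemokine of stromal cells that holds Cxcr4-bearing leukocytes in tissue, had 132 and 101 in CuNZ@Gel and 51.8 and 102 in Gel, against 338 and 279 in Sham (change -1.73, adjusted p = 5.63e-07; DESeq2 adjusted p = 0.228).

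Developmental transcription factors of low level rose with both gels. Zic1, a zinc finger factor of neural crest and mesoderm, had 14.4 and 17.6 in CuNZ@Gel and 16.1 and 15.9 in Gel, against 4.31 and 3.80 in Sham. It was above background in 11 of 16 hydrogel areas and in none of 8 Sham areas, with a change of 1.75 (SE 0.23, adjusted p = 1.73e-09) that did not pass with thinned counts (adjusted p = 0.0799). The LIM homeobox gene Lhx8 had 11.02 and 11.6 in CuNZ@Gel and 17.8 and 14.4 in Gel, against 2.25 and 4.29 in Sham (change 1.80, adjusted p = 4.82e-09). Lhx8 was above background in 7 of 16 hydrogel areas, 5 of Gel and 2 of CuNZ@Gel, and in none of 8 Sham areas. Hoxc8, a homeobox gene of trunk position, went the other way, with 20.4 and 19.9 in CuNZ@Gel and 11.2 and 13.03 in Gel, against 28.8 and 28.2 in Sham. Its call was lost without Sham 1 (adjusted p = 0.13) or Sham 2 (0.0546). These were the 3 calls among 22 positional transcription factors.

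Other shared rises were Steap1, a membrane protein of a metalloreductase family, and Rasa4, which switches Ras off. Steap1 had 33.2 and 38.0 in CuNZ@Gel and 52.8 and 43.7 in Gel, against 12.53 and 16.4 in Sham, and passed under all alternatives (change 1.46, adjusted p = 1.32e-10). Rasa4 had 19.5 and 38.1 in CuNZ@Gel and 21.7 and 33.5 in Gel, against 11.1 and 10.8 in Sham (change 1.23, adjusted p = 7.07e-06; DESeq2 adjusted p = 0.106). The co-chaperone gene Sgtb changed by 1.31, a call that rested on Sham 1, without which the adjusted p was 0.264.

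**Figure D1:**
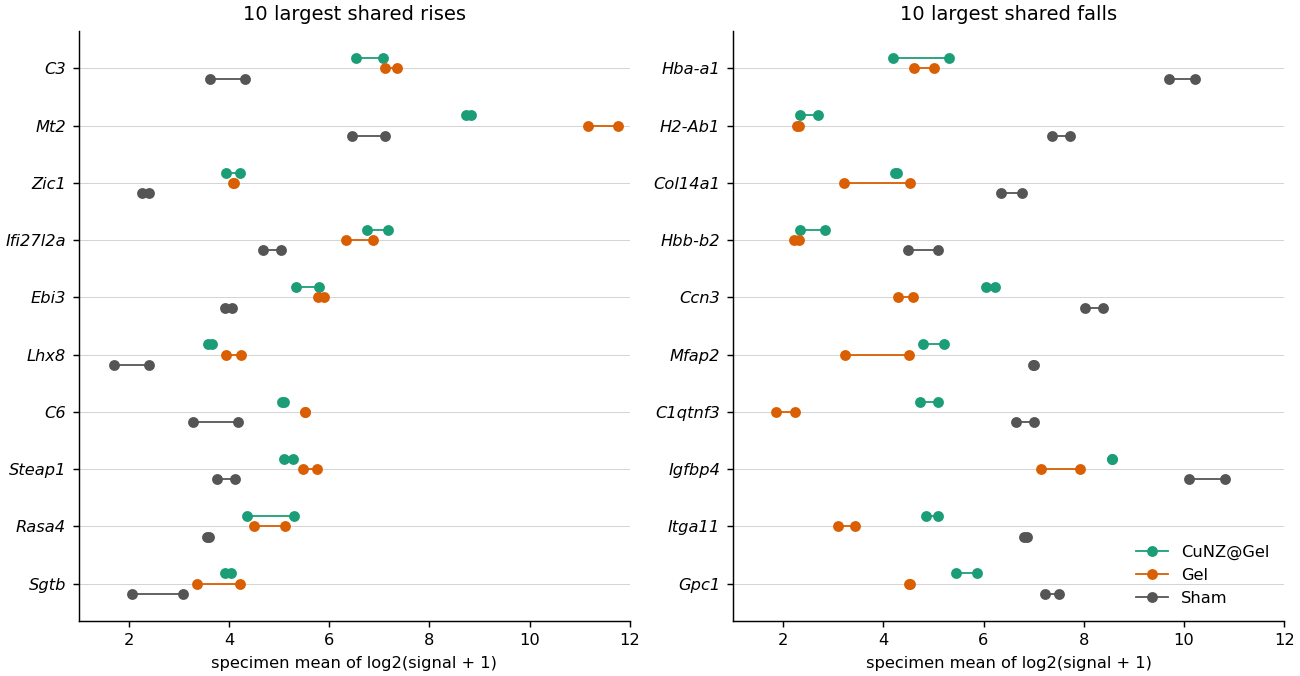
Specimen means of log2(signal + 1) for the 10 rises (left) and 10 falls (right) with the largest change shared by both gels, each point 1 specimen and each line joining the 2 specimens of CuNZ@Gel, Gel or Sham. The horizontal axis is the log2 level. In every row all 4 hydrogel points lie on the same side of both Sham points, as the choice of these genes required. For C3 the hydrogel specimens have signals of 91.8 to 161 against 11.2 and 18.9 in Sham.

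The largest falls were in haemoglobin and in 1 MHC class II gene. Hba-a1, a haemoglobin alpha chain, had 17.4 and 39.0 in CuNZ@Gel and 23.6 and 31.2 in Gel, against 1193 and 834 in Sham. No hydrogel specimen came near the Sham range, and the change was -5.18 (SE 0.33, adjusted p = 2.71e-04). The beta chain gene Hbb-b2 had 4.02 and 6.10 in CuNZ@Gel and 3.63 and 4.004 in Gel, against 32.9 and 21.4 in Sham (change -2.36, adjusted p = 3.78e-14). It was above background in none of 16 hydrogel areas and in 7 of 8 Sham areas. These were the 2 calls among 9 erythroid genes tested, and the summed signal of the list was 43.0 to 67.6 in hydrogel specimens and 880 to 1253 in Sham. That sum includes Hbb-b2 and Hba-a1 themselves, and Hba-a1 alone was at 1193 and 834 in Sham. Of the 9 genes 7 were above background in no area, and the median of the list was -0.24. The part of blood left in the tissue in any other result was not tested. Hba-a1 did not pass with Segment 1 areas alone (adjusted p = 0.0773), with means of linear values (0.0821) or with thinned counts (0.171).

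H2-Ab1 encodes the beta chain of an MHC class II molecule in the mouse, whose naming the targets follow. It had 4.06 and 5.51 in CuNZ@Gel and 3.83 and 4.02 in Gel, against 165 and 209 in Sham. Sham specimens were far above background in all 8 areas, and all 16 hydrogel areas were below it. The change was -5.14 (SE 0.20, adjusted p = 2.32e-49), and it passed under all 23 alternatives, between -5.91 and -4.34. No other class II gene above background passed. H2-Eb1, the beta chain of another class II molecule, had 169.5 and 212 in CuNZ@Gel and 90.2 and 261 in Gel, against 96.1 and 161 in Sham, with overlapping groups (change 0.45, adjusted p = 0.83). Cd74 had 87.4 and 119 in CuNZ@Gel and 73.5 and 206 in Gel, against 75.1 and 112 in Sham (change 0.28, adjusted p = 0.893). H2-Aa, the alpha chain partner of H2-Ab1 in the mouse, stayed between 2.59 and 5.04 in every specimen. Of 12 class II genes H2-Ab1 fell and H2-Ob, below background, rose by 0.92, a call lost without CuNZ@Gel 2 (adjusted p = 0.295), Sham 1 (0.138) or Sham 2 (0.191). The median of the list was 0.23.

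Collagens, elastic fibre proteins and other matrix genes were among the named falls. Col14a1, a collagen on the surface of fibrils, had 18.4 and 17.7 in CuNZ@Gel and 8.27 and 22.2 in Gel, against 80.4 and 107 in Sham. The gels overlapped and lay well under Sham (change -2.49, SE 0.31, adjusted p = 2.17e-03; 0.254 after quantile normalization). Col12a1, of the same class, had 852 and 978 in CuNZ@Gel and 173 and 228 in Gel, against 1628 and 1621 in Sham. Of 15 fibrillar and fibril-associated collagens 5 passed, all lower, and every one of the 15 had a negative change, with a median of -0.67. The calls were 5 of 12 members above background. Of all targets above background 6.01% were called lower, and their median change was -0.15. Col14a1, Col12a1 and Col5a1 passed whichever specimen was left out. Col5a1, which seeds collagen I fibrils, had 840 and 895 in CuNZ@Gel and 241 and 476 in Gel, against 972 and 1183 in Sham (average change -0.98, adjusted p = 1.20e-03). Its CuNZ@Gel specimens lay close to Sham, with a change of their own of -0.31 that did not pass (adjusted p = 0.664). The Col5a1 call was lost with quantile normalization (0.451), edgeR (0.173), DESeq2 (0.372), limma without trend and robust (0.0846), mac1 regions only (0.19) or 2 groups fitted (0.646). Col6a3 changed by -0.67, a call lost without Sham 1 (adjusted p = 0.464) or CuNZ@Gel 1 (0.125). The most abundant member, Col3a1, had 7441 and 8201 in CuNZ@Gel and 2316 and 6618 in Gel, against 10169.9 and 12709 in Sham, and did not pass (change -1.04, SE 0.52, adjusted p = 0.54). Col1a1 did not pass either (change -1.14, adjusted p = 0.381).

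Elastic fibre genes had 5 calls of 16, all lower, or 5 of 10 above background, where 6.01% of all targets were called lower. The median of the list was -0.46, and 1 of the calls, Mfap2, passed whichever specimen was left out. The microfibril gene Mfap2 had 36.3 and 26.8 in CuNZ@Gel and 8.44 and 21.8 in Gel, against 126 and 128 in Sham (change -2.55, adjusted p = 2.01e-03; 0.222 after quantile normalization). Eln, the elastin gene, had 18.6 and 20.6 in CuNZ@Gel and 22.1 and 29.8 in Gel, against 52.7 and 33.2 in Sham. The Eln call was lost without Sham 1 (adjusted p = 0.563), as was that of Ltbp4, which tethers latent TGF-beta to the fibres (adjusted p = 0.103). Of 20 matrix glycoproteins and matricellular proteins 3 fell and 1 rose. Ccn3, a matricellular regulator, had 73.6 and 65.6 in CuNZ@Gel and 18.5 and 23.1 in Gel, against 260.4 and 331 in Sham, with 3 levels that did not overlap (change -2.91, SE 0.16, adjusted p = 1.06e-33). Thbs2, a thrombospondin, had 379.6 and 407 in CuNZ@Gel and 70.9 and 121 in Gel, against 720.3 and 733 in Sham (change -1.92). The Ccn3 and Thbs2 calls were lost with 2 groups fitted (adjusted p = 0.279 and 0.516). Fn1, fibronectin, fell to 1057 and 1058 in CuNZ@Gel and 325 and 506 in Gel, against 1248 and 1146 in Sham (change -0.87, adjusted p = 2.21e-05; edgeR adjusted p = 0.282). Its CuNZ@Gel specimens lay close to Sham.

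Fibroblast markers had 4 calls of 18, all lower, or 4 of 12 above background, where 6.01% of all targets were called lower. Their median was -0.49. The summed signal was 3836 to 11676 in hydrogel specimens and 14595 to 17910 in Sham, a sum that weighs the most abundant markers most. Fap, a surface protease of activated fibroblasts, had 32.4 and 31.0 in CuNZ@Gel and 22.6 and 28.9 in Gel, against 62.4 and 68.7 in Sham. Both gels were at about the same Fap level, and the Fap call passed under all alternatives (change -1.17, SE 0.17, adjusted p = 1.30e-07). Loxl1 was lost without any 1 of 5 specimens (adjusted p = 0.086 to 0.402). The microfibril gene Mfap5, which the elastic fibre list also holds, had 234 and 249.8 in CuNZ@Gel and 62.8 and 117 in Gel, against 209 and 276 in Sham. It was lower in Gel, at a change of -1.48, while CuNZ@Gel overlapped Sham with a change of 0.0084 (adjusted p = 0.992), and the gels differed (adjusted p = 4.86e-07). Its average call is thus not a shared fall, and was lost with 2 groups fitted (0.757), CuNZ@Gel 1 left out (0.0657) or Sham 2 left out (0.287). Lum, the collagen-binding proteoglycan lumican, had 1181 and 1248 in CuNZ@Gel and 769 and 1221 in Gel, against 2095 and 2139 in Sham (change -0.96, adjusted p = 1.38e-06; edgeR adjusted p = 0.303). Of 20 matrix proteases and inhibitors 4 passed, all lower, which were 4 of 9 above background. Adam12 changed by -1.13 (adjusted p = 1.69e-08), Mmp2 by -0.87, lost without Sham 2 (adjusted p = 0.0947), and Mmp14, which activates pro-Mmp2, by -0.74, lost without Sham 1 (adjusted p = 0.185) or CuNZ@Gel 1 (0.0672). The fourth, Mmp19, was lost without Sham 1 (0.843), Gel 2 (0.0531), CuNZ@Gel 1 (0.181) or CuNZ@Gel 2 (0.121). Of 14 integrin chains 3 passed, all lower, which were 3 of 9 above background. The collagen receptor chain Itga11 led them, with 32.9 and 27.8 in CuNZ@Gel and 7.54 and 9.76 in Gel, against 111 and 115 in Sham (change -2.72, adjusted p = 3.54e-28). The gels differed in Itga11 (adjusted p = 6.72e-11), and its call was lost with 2 groups fitted (0.305). Itga8, a receptor chain for nephronectin and fibronectin, changed by -1.70 (adjusted p = 2.77e-11), and Itgb5 by -0.62, a call lost without any 1 of 5 specimens (adjusted p = 0.0708 to 0.424).

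Further large falls were in secreted and surface proteins of stromal cells. Igfbp4, which binds insulin-like growth factors, had 376 and 379.6 in CuNZ@Gel and 140.1 and 241 in Gel, against 1799.8 and 1098 in Sham (change -2.41, adjusted p = 2.11e-09). The Igfbp4 call was lost with quantile normalization (adjusted p = 0.0507), Segment 1 areas only (0.162), mac2 regions only (0.329) or 2 groups fitted (0.229). The heparin-binding growth factor gene Mdk had 46.2 and 41.8 in CuNZ@Gel and 13.6 and 13.7 in Gel, against 136 and 142 in Sham, and was the 1 call among 26 wound growth factors (change -2.44, adjusted p = 4.80e-26). Gpc1, a heparan sulfate proteoglycan, changed by -2.28 and the adhesion molecule gene Ncam1 by -1.88. In these genes Gel lay farther from Sham than CuNZ@Gel did on average. The Mdk and Gpc1 calls were lost with 2 groups fitted (adjusted p = 0.313 and 0.216). Ncam1, whose call was lost with quantile normalization (adjusted p = 0.161), was the 1 call of 8 Schwann cell markers. Their summed signal was 57.4 to 72.8 in hydrogel specimens and 108 to 128 in Sham. That sum includes Ncam1 itself, at 9.96 to 23.7 in hydrogel specimens and 62.7 to 75.03 in Sham. The other marker above background changed by -0.07, and the median of the list was -0.03. The part of Schwann cells in the Ncam1 result was not tested.

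How far the change was shared was read from CuNZ@Gel minus Gel, a contrast that uses no Sham specimen. It called 186 of 19728 targets (0.943%; 3.24% of those above background), 123 higher and 63 lower in CuNZ@Gel, and 106 without CuNZ@Gel 1, 95 without CuNZ@Gel 2 and 293 without Gel 2. Of the 392 non-overlapping hydrogel calls, 331 did not pass between the gels and 61 did (15.6%). In 59 of those 61, Gel was farther from Sham: in 7 of 7 rises and 52 of 54 falls. The interval of the difference ran from -0.53 to 0.52 for Zic1, from -0.24 to 0.68 for H2-Ab1, from -0.96 to 0.85 for Hba-a1, from -0.01 to 0.75 for Ifi27l2a and from -0.68 to 0.12 for Ebi3 (95% intervals, log2, not adjusted). For C3 it ran from -0.81 to -0.03 and so lay below 0, with Gel the higher. None of these 6 passed between the gels (lowest adjusted p = 0.677), which does not show that the gels act alike.

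Among called rises above background without overlap of the hydrogel and Sham specimens, those that differed most between the gels were Mt2, Prg4, Mt1 and Zbtb16. CuNZ@Gel minus Gel was -2.68 for Mt2 (95% interval -3.05 to -2.31, adjusted p = 5.09e-21). Prg4, which encodes the lubricant lubricin, had 36.7 and 25.3 in CuNZ@Gel and 226 and 139.7 in Gel, against 25.3 and 22.5 in Sham, a difference of -2.50 between the gels (interval -2.90 to -2.11). Gel alone stood clear of Sham. Zbtb16, a transcription factor gene induced by glucocorticoids, had 16.4 and 12.7 in CuNZ@Gel and 33.7 and 44.0 in Gel, against 6.46 and 9.72 in Sham (difference -1.36, interval -1.82 to -0.89). Among falls chosen likewise, the secreted protein gene C1qtnf3 had 33.3 and 25.6 in CuNZ@Gel and 2.62 and 3.72 in Gel, against 127 and 99.3 in Sham, a difference of 2.87 (interval 2.44 to 3.30). Ms4a4a, a macrophage surface protein gene, differed by 2.83 and Col12a1 by 2.19. Tagln, an actin-binding protein of contractile cells, had 48.1 and 41.8 in CuNZ@Gel and 5.38 and 11.1 in Gel, against 66.4 and 72.8 in Sham, a difference of 2.39 (interval 1.96 to 2.81). With hydrogels and Sham fitted as 2 groups, so that the gels' difference enters the spread, none of these 8 hydrogel changes passed (adjusted p = 0.396 to 0.656).

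**Figure D2:**
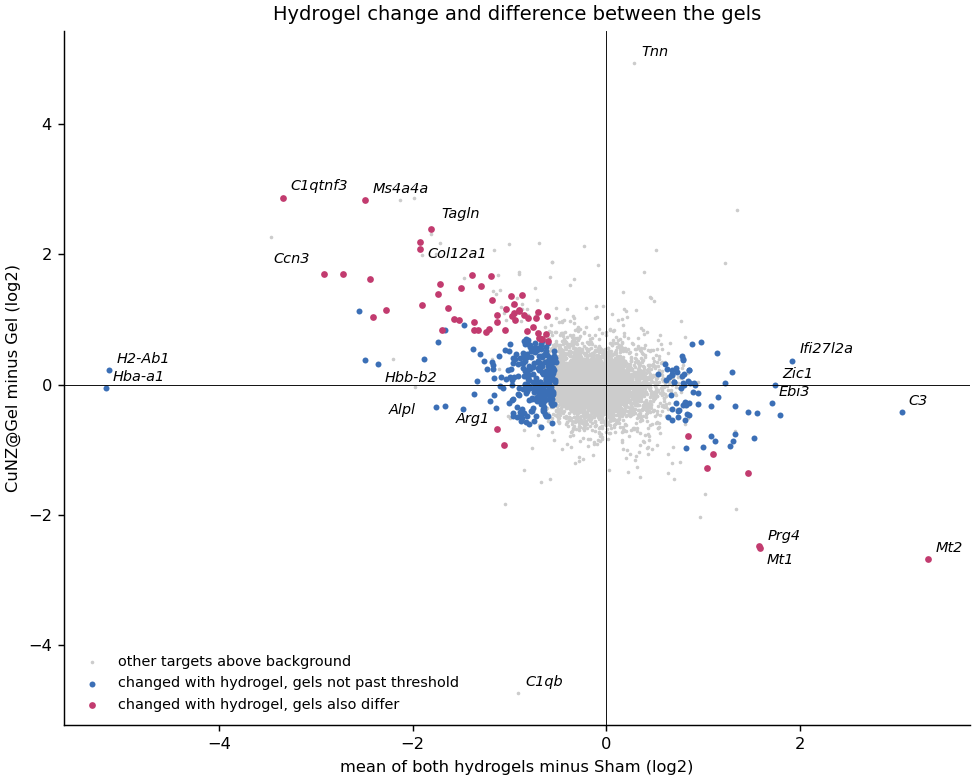
Each point is 1 target above background, with the mean of both hydrogels minus Sham (log2) on the horizontal axis and CuNZ@Gel minus Gel (log2) on the vertical axis. Blue points changed with hydrogel without passing between the gels and pink points passed in both; most pink falls lie above 0 and most pink rises below it, since Gel lay farther from Sham in 59 of 61, while H2-Ab1 and Hba-a1 sit near 0 on the vertical axis.

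Contractile genes were also unequal between the gels, where 5 of 16 passed. Against Sham 3 of 16 passed, all lower, and 15 of 16 changes were negative, with a median of -0.31. The calls were 3 of 9 members above background, where 6.01% of all targets were called lower. Tpm1, a tropomyosin, had 105 and 106 in CuNZ@Gel and 34.9 and 60.9 in Gel, against 227 and 214 in Sham (change -1.64, adjusted p = 8.10e-15). With 2 groups fitted the Tpm1 call was lost (adjusted p = 0.383). Cald1, caldesmon, overlapped between CuNZ@Gel and Sham, and its call was lost without Sham 2 (adjusted p = 0.392). Acta2, the smooth muscle actin that marks myofibroblasts, had 413 and 353 in CuNZ@Gel and 22.2 and 117 in Gel, against 644 and 491 in Sham. Its Gel specimens were far apart, and the change of -1.99 (SE 0.80) did not pass (adjusted p = 0.455).

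Calls among macrophage genes ran in both directions. Cd68, a lysosomal membrane protein of macrophages, had 168 and 181 in CuNZ@Gel and 182 and 201 in Gel, against 275 and 177 in Sham, overlapping in level (change -0.27, adjusted p = 0.478). Of 20 macrophage markers C1qb was the 1 call (adjusted p = 0.37 without Sham 2). Among 18 genes of alternatively activated macrophages Arg1 and Ms4a4a fell and F13a1 rose, with a median of 0.02. These calls were 1 of 9 macrophage markers and 3 of 8 alternative activation genes above background, where 7.6% of all targets were called. Arg1, the arginine-degrading enzyme, had 43.9 and 53.6 in CuNZ@Gel and 69.1 and 54.6 in Gel, against 264 and 117 in Sham (change -1.67, SE 0.28, adjusted p = 0.0151). Single Gel areas reached 255.5 and overlapped Sham areas, and DESeq2 (adjusted p = 0.0857) and quantile normalization (0.472) made no call. F13a1, coagulation factor XIII A chain, had 9.04 and 9.74 in CuNZ@Gel and 26.4 and 12.2 in Gel, against 6.19 and 4.77 in Sham; without Sham 2 its adjusted p was 0.05. The mannose receptor gene Mrc1 moved apart in the gels, with 26.4 and 30.6 in CuNZ@Gel and 72.9 and 55.9 in Gel, against 48.7 and 52.8 in Sham (average change -0.24, adjusted p = 0.576). Of 14 T and NK cell genes Cd2 and Il7r fell, while 10 of the 14 changes were positive and the median was 0.10. These were 2 of 4 members above background, where 6.01% of all targets were called lower. The Cd2 call was lost without Sham 1 (adjusted p = 0.72), and Il7r without Sham 1 (0.837), Gel 2 (0.0529) or CuNZ@Gel 2 (0.0954).

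Iron genes had 4 calls of 12. The ferritin heavy chain gene Fth1, which stores iron, had 1316 and 1722 in CuNZ@Gel and 2536 and 1785 in Gel, against 4429 and 2581 in Sham, and the light chain gene Ftl1 had 278 and 351 in CuNZ@Gel and 316 and 306 in Gel, against 617 and 489 in Sham. Both calls were lost without Sham 1 (adjusted p = 0.53 for Fth1 and 0.196 for Ftl1). Trf, the iron carrier transferrin, had 63.5 and 74.6 in CuNZ@Gel and 258 and 194 in Gel, against 51.1 and 72.4 in Sham, with CuNZ@Gel overlapping Sham (average change 1.02; adjusted p = 0.0559 without Sham 1). The iron regulatory protein gene Ireb2 changed by -0.58 and was lost without Sham 1 (0.362), Sham 2 (0.205), CuNZ@Gel 1 (0.198) or CuNZ@Gel 2 (0.0857). Of 20 lysosome and lipid-handling genes Apoe rose by 0.96 and Cd63 and Ctsd fell by 0.69 and 0.82, and none of the 3 passed without Sham 1 (adjusted p = 0.342, 0.429 and 0.675); Cd63 was also lost without CuNZ@Gel 1 (0.0916).

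Smaller shared falls were in genes of the mitochondrial respiratory chain and of stress responses. Of 19 oxidative phosphorylation genes 4 passed, all lower, with a median of -0.25: Atp5a1 of ATP synthase (change -0.74), Uqcrb of complex III (-0.70), Sdhb of complex II (-0.61) and Ndufa4 of the respiratory chain (-0.59). These were 4 of 12 members above background, where 6.01% of all targets were called lower. Atp5a1 had 102 and 115 in CuNZ@Gel and 98.7 and 128 in Gel, against 203 and 170.0 in Sham. Without Sham 1 none of the 4 passed (adjusted p = 0.241 to 0.749), and Uqcrb, Sdhb and Ndufa4 were also lost without CuNZ@Gel 1 (0.0607 to 0.176), Sdhb and Ndufa4 without CuNZ@Gel 2 (0.0928 to 0.109), Sdhb without Gel 1 (0.128) and Ndufa4 without Sham 2 (0.258). Neither edgeR nor DESeq2 called any of the 19, of which 8 had an unadjusted p under 0.05 in limma. Of 22 hypoxia and glycolysis genes limma called 0, with 5 at an unadjusted p under 0.05, 15 positive changes and a median of 0.18, while edgeR called 1 and DESeq2 called 0. Of 21 antioxidant genes Prdx2, Gclm and Gstm1 passed, and of 21 heat shock and unfolded protein response genes Dnajb1, Pdia6 and Manf passed, all lower. Without Sham 1 none of these 6 passed (adjusted p = 0.194 to 0.84), and each was also lost without at least 1 CuNZ@Gel specimen (0.0502 to 0.317). Prdx2, Dnajb1 and Manf were lost without Sham 2 as well (0.0589 to 0.253), and Gclm and Dnajb1 without Gel 1 (0.0755 and 0.101).

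Early response and vessel genes had small rises. Of 18 immediate-early genes Fosl1, Zfp36 and Egr1 rose by 0.83, 0.75 and 0.65, and Klf4 fell by 0.89. Egr1, a zinc finger factor induced within minutes of injury, had 58.7 and 67.0 in CuNZ@Gel and 60.1 and 55.1 in Gel, against 40.0 and 35.9 in Sham, with the gels level. Without Sham 2 none of the 4 passed (adjusted p = 0.0684 to 0.222). Fosl1, Zfp36 and Egr1 were also lost without CuNZ@Gel 2 (0.0518 to 0.105), and Zfp36 and Egr1 without Sham 1 (0.0804 and 0.109). Of 12 glucocorticoid-responsive genes Mt2, Zbtb16 and Ddit4 rose. Ddit4, which restrains mTORC1, had 95.7 and 118 in CuNZ@Gel and 65.6 and 99.4 in Gel, against 53.6 and 52.5 in Sham (change 0.79, adjusted p = 5.39e-04; DESeq2 adjusted p = 0.132). Of 15 endothelial growth and arterial genes 3 rose: the Notch ligand gene Dll4 by 0.83, Apln by 0.79 and the connexin gene Gja5 by 0.97 on average. Gja5 had 6.52 and 6.05 in CuNZ@Gel and 39.0 and 21.3 in Gel, against 6.29 and 6.74 in Sham. CuNZ@Gel overlapped Sham and the gels differed (adjusted p = 2.11e-09), so the Gja5 average is not a shared rise, and with 2 groups fitted it did not pass (adjusted p = 0.75). All 3 were lost without some specimen, Dll4 without Sham 2 (adjusted p = 0.0775) or CuNZ@Gel 2 (0.0572), Apln without Sham 2 (0.378), Gel 1 (0.154) or CuNZ@Gel 2 (0.103), and Gja5 without Sham 1 (0.103) or Gel 1 (0.0726).

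The series title speaks of epigenetic change, and 24 genes of histone and DNA modifying enzymes were therefore listed. limma called 0 of them, with 2 at an unadjusted p under 0.05 and a median of -0.05, and edgeR and DESeq2 called 0 as well. Transcript levels do not measure the enzymes' activity or any mark.

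**Figure D3:**
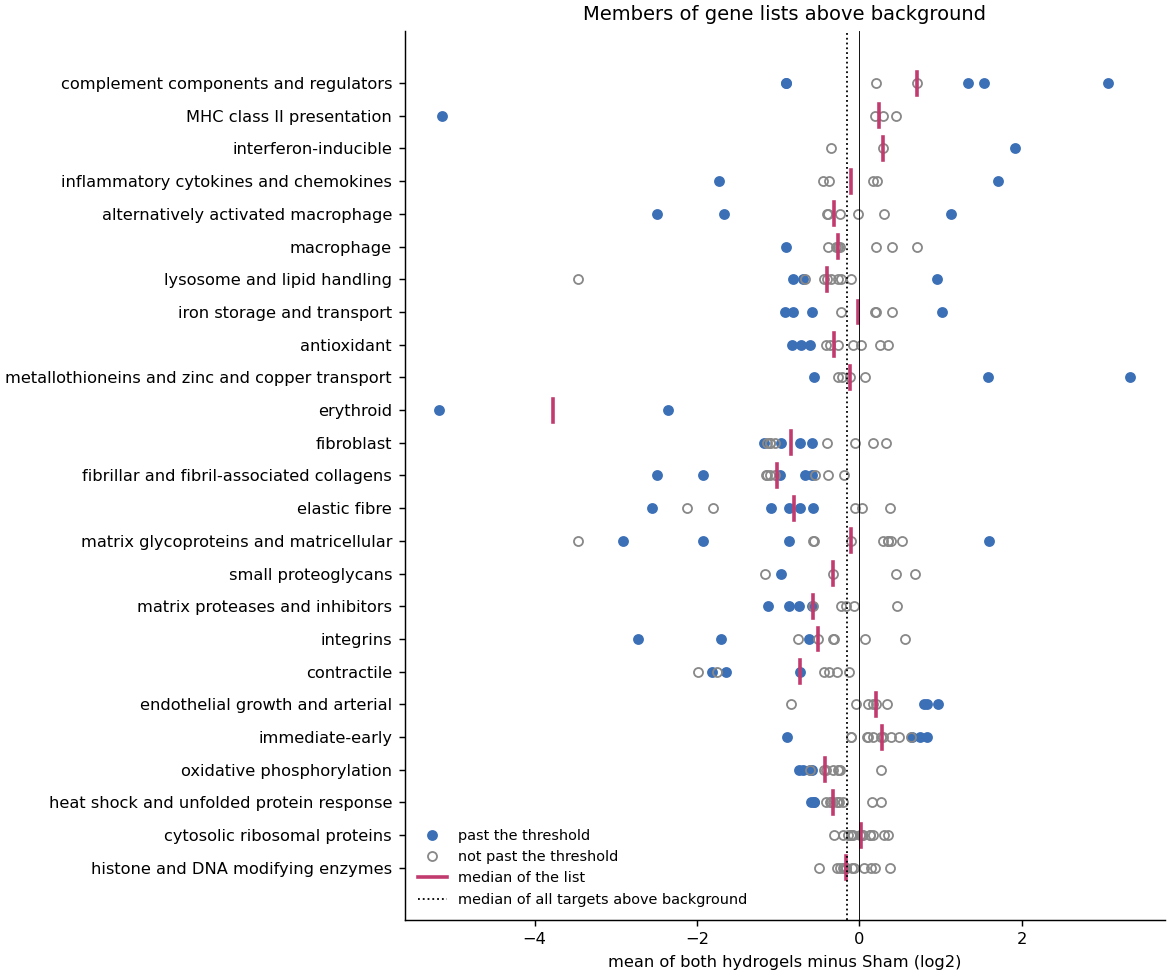
Changes of the members of gene lists that were above background, with the mean of both hydrogels minus Sham (log2) on the horizontal axis and 1 list per row. Filled points passed the threshold, open points did not, pink bars are the list's median over these members and the dotted line is the median of all targets above background, at -0.15; collagen and elastic fibre points lie mostly left of that line, and C3, Mt2, H2-Ab1 and Hba-a1 stand far from the rest of their lists.

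The hydrogel change was compared between the segments as Segment 2 minus Segment 1 within each specimen. limma called 0 of 19728 targets (0.0%), with 888 at an unadjusted p under 0.05 (4.50%) and a lowest adjusted p of 0.958. edgeR and DESeq2 were not run on this contrast. C3 changed by 2.80 in Segment 1 and 3.32 in Segment 2, and H2-Ab1 by -5.49 and -4.78. Their differences of 0.52 (SE 0.40) and 0.71 (SE 0.38) did not pass (adjusted p = 0.958 each). In Segment 1 areas C3 ran from 64.2 to 402 in hydrogel wounds and from 10.1 to 37.1 in Sham, and in Segment 2 areas from 87.2 to 237 in hydrogel wounds and from 8.18 to 20.4 in Sham. No hydrogel area overlapped a Sham area of the same segment. Segment 2 areas were shallower, with a median of 170040 recovered counts against 533133.5 in Segment 1, which raises the lowest signal that can be read there.

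**Figure D4:**
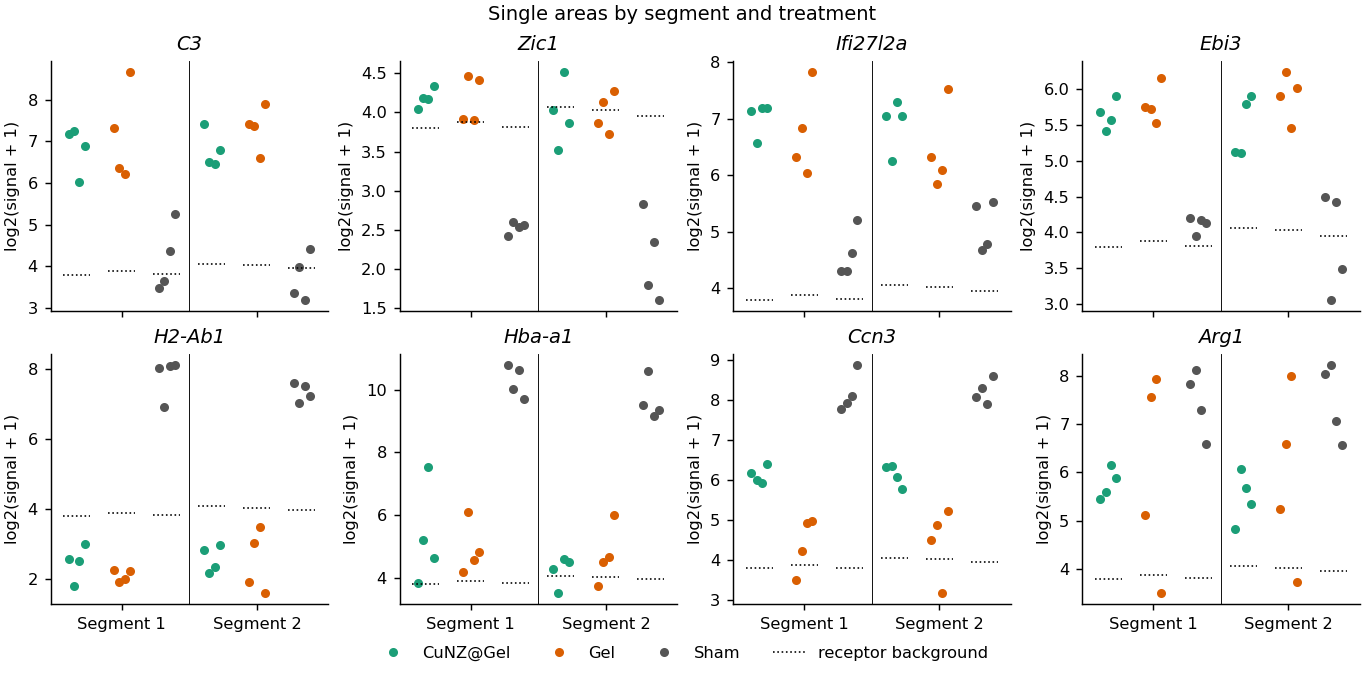
Log2(signal + 1) of 8 genes in each of the 24 areas, by segment and, within it, by CuNZ@Gel, Gel and Sham; each point is 1 area and the dotted lines are the median receptor background of each group. For C3, Zic1, Ifi27l2a, Ebi3, H2-Ab1, Hba-a1 and Ccn3 no hydrogel area overlaps a Sham area of the same segment, while for Arg1 single Gel areas reach the Sham level.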

How the data were processed

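Per the labels' protocols, fixed, paraffin-embedded sections were hybridised with GeoMx probes, areas were defined by immunofluorescence, and released tags were sequenced. The deposited files hold signal values of 19963 targets, a negative probe included. How the authors counted tags, filtered probes and scaled the signal is not given in the sources used here. Their 75th percentile was 12.1 in 1 Gel area and 12.3 in the others. At least 99.98% of the signal values in every area were, within 0.01, whole multiples of its lowest value, and dividing by that value gave the recovered counts. No target was listed at 0. The lowest signal is that of 1 count, and it is higher, and less precise, where an area is shallow.

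The 19728 targets that exceeded the negative probe in 4 areas or more were kept. log2(signal + 1) was averaged over the 4 areas of a specimen, and the 6 specimens were fitted by treatment (limma 3.58.1, R 4.3.3, with a trended, robust eBayes). The contrast was the mean of Gel and CuNZ@Gel minus Sham. p-values were adjusted by Benjamini-Hochberg across every target tested, and 0.05 was the threshold. Alternatives covered scaling, filter, pseudocount, averaging, the spread estimate, depth, segments, regions, the omission of each specimen, and edgeR 4.0.16 and DESeq2 1.42.0 on recovered counts summed per specimen. The fits were tested on simulated data, with added noise alike for all targets and independent between areas. The simulation held no further spread between specimens, so it does not check the p-values against such spread. Where 1 Sham specimen was left out, the other was assumed to vary like the other groups. Same-numbered specimens did not deviate together (correlations of -0.025, 0.0037 and -0.032 over 5554 targets), and specimens were not paired by number. Whether same-numbered specimens shared a source was not tested.

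The comparison and the 46 gene lists were chosen with earlier results of these data known. Named genes were the 12 rises and 12 falls with the largest change shared by both gels among calls above background without overlap of the specimens, the 4 rises and 4 falls that differed most between the gels, the 4 called members with the lowest p in each list, or fewer, and 24 genes taken regardless of their values. Not every gene so named is reported here. Target symbols are those of the files. They follow mouse naming, and 16665 equal a rat symbol in RefSeq's annotation of GRCr8. Promoters came from RefSeq on that build.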

Additional observations from a re-analysis of the deposited data

Results flagged for a closer look

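Among the 4 hydrogel specimens, 5 of the 100 named genes had a single specimen far from the other 3 (the gap to its nearest neighbour, relative to the whole range, was above Dixon's 95% critical value), and chance alone flags about 1 gene in 20. H2-Ab1 was at 5.51 in CuNZ@Gel 2, above the other hydrogel specimens and still far under Sham. H2-Ob was at 4.82 in CuNZ@Gel 1, near Sham, with the others higher. Lum was at 769 and Col3a1 at 2316 in Gel 1, in both cases below the rest. Gclm was at 19.6 in Gel 2, above the rest and under Sham.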

How the results depend on the processing

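The number of targets called between hydrogels and Sham was 469, and became 310 after quantile normalization, 127 with limma without trend and robust, 142 with DESeq2, 170 with thinned counts, 177 with 2 groups fitted, 818 with the 24 areas as samples, 258 with Segment 2 areas only and 150 with mac1 regions only. Leaving out 1 specimen gave 146 to 944. Between the gels it was 186, and became 75 with limma without trend and robust, 55 with DESeq2 and 88 with thinned counts, and 95 to 293 on leaving out 1 specimen. Other settings tallied moved neither count by over 1.5 times. Single segments, single regions, 2 groups fitted and the 24 areas as samples were tallied only for hydrogels against Sham. The difference between segments had 0 limma calls under every setting run. With all specimens kept, 840 to 1054 targets had an unadjusted p under 0.05. Where only the 5554 targets above background were tested, 351 did. With a replicate block the counts were 483, 201 and 0, and no named call was lost. The specimen numbers share no labelled source. Igkc changed by 0.90 and by -0.032 with mac1 regions only. Of the 90 calls among named genes, 7 held in each alternative run; the most calls were lost with 2 groups fitted (51), limma without trend and robust (50) and DESeq2 (48). The causes were not tested.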

Other observations

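Among the 392 calls above background without overlap of the specimens, 93 stayed past the threshold whichever specimen was left out and 22 under all 23 alternatives. These 22 were picked after their values were seen. The 4 rises were Ifi27l2a, Lhx8, Ebi3 and Steap1. The 18 falls included, beside H2-Ab1, Hbb-b2 and Fap, the alkaline phosphatase gene Alpl, which had 8.66 and 11.8 in CuNZ@Gel and 14.5 and 11.8 in Gel, against 51.1 and 33.7 in Sham (change -1.76, adjusted p = 4.59e-12). Lgals1, the galactoside-binding protein galectin 1, had 286 and 272 in CuNZ@Gel and 254 and 376 in Gel, against 784 and 732 in Sham (change -1.36). The ephrin gene Efnb1 had 39.5 and 34.0 in CuNZ@Gel and 21.1 and 32.2 in Gel, against 80.0 and 76.3 in Sham (change -1.31). Adam19, a membrane metalloprotease, had 69.4 and 72.2 in CuNZ@Gel and 66.3 and 67.9 in Gel, against 135 and 138 in Sham, with the gels level (change -0.98). Fads1, a fatty acid desaturase, changed by -1.38 and the glutathione transferase gene Gstm5 by -1.37. In all of these the 4 hydrogel specimens lay below both Sham specimens, as the way they were picked requires.

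The average over the gels hides 34 of the 5554 targets above background, also picked after their values were seen. These did not pass on average but differed between the gels, with both specimens of 1 gel above and both of the other below the 2 Sham specimens. They were among 88 targets above background called between the gels with the gels on opposite sides of the Sham mean. Gel was above Sham in 18 of them and below it in 16. The matrix protein gene Tnn, tenascin-N, had 109 and 167 in CuNZ@Gel and 3.61 and 3.26 in Gel, against 13.8 and 26.2 in Sham. Its relative Tnc had 356 and 444 in CuNZ@Gel and 91.9 and 96.1 in Gel, against 113 and 161 in Sham. Il1rn, the interleukin 1 receptor antagonist, had 20.3 and 20.2 in CuNZ@Gel and 58.2 and 29.8 in Gel, against 26.4 and 23.6 in Sham. The activin-binding protein gene Fst had 8.996 and 9.36 in CuNZ@Gel and 30.5 and 20.0 in Gel, against 13.2 and 12.51 in Sham. Spp1, osteopontin, lay outside the named genes and had 17.1 and 20.7 in CuNZ@Gel and 2.17 and 4.34 in Gel, against 308 and 31.3 in Sham. Its Sham specimens were far apart and its change of -3.47 did not pass (adjusted p = 0.367).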
